A study of Homo sapiens with 41 samples.

Results

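H3122 is a human lung adenocarcinoma cell line, and the libraries described here are its untreated cultures: 2 of the 41 RNA samples in the series. They were set against the 7 untreated libraries of the melanoma lines A375, Colo800 and UACC62. The study as a whole concerned what tumours secrete under targeted drugs, and this comparison asks how far the only lung line differs in lineage from the others before any drug. The members are all genes that differed between untreated H3122 and every melanoma line, with the lineage genes among them described by group.

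The groups were H3122 with vehicle (n = 2), A375 with vehicle (n = 3), Colo800 with vehicle (n = 2) and UACC62 with vehicle (n = 2), all kept in medium with 2% serum during exposure to vehicle. A375 had been grown in DMEM, whereas H3122, Colo800 and UACC62 had been grown in RPMI. A second set, used to repeat the comparison, held H3122 after 48 h of crizotinib at 0.3 µM (n = 2), A375 after 48 h of vemurafenib at 0.1 µM (n = 3), and Colo800 (n = 2) and UACC62 (n = 2) after 48 h of vemurafenib at 1 µM. Crizotinib inhibits the kinases ALK and MET, and vemurafenib inhibits mutant BRAF. Lung is represented by 1 line, so line, tissue of origin and deposited table cannot be told apart, and no test was made across lines. Nothing in the labels says that replicates were separate cultures, so the spread between them may be technical.

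Lung epithelium and melanocytes come from different germ layers. Airway and alveolar cells derive from endoderm, where NKX2-1 and the FOXA factors set lung identity, grainyhead-like and ELF3-type factors maintain the epithelial state, and E-cadherin, claudins and desmosomes bind cells into a sheet filled with keratin filaments. Melanocytes derive from the neural crest, whose migratory cells use vimentin filaments and N-cadherin. In melanocytes SOX10 and PAX3 act on MITF, which in turn activates the enzymes and structural proteins of the melanosome. Many lung adenocarcinomas, including those driven by a fusion of EML4 with the kinase ALK such as H3122, keep NKX2-1.

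The promoters below belong to lineage genes and hold short motifs of known regulators. CAGGTG is an E-box that the repressors ZEB1, ZEB2 and SNAI1 are known to bind in epithelial genes, and TCATGTG is the core of the M-box bound by MITF. Both were searched on both strands in the 250 bases before each gene's start in RefSeq (GRCh38.p14), with CACCTG and CACATGA as their reverse complements. The E-box stood in 15 of the 24 promoters found for the list of epithelial programme genes (62.5%) and in 7 of the 17 found for epithelial junction genes (41.2%), against 4781 of all 27305 promoters (17.5%). Members called higher in H3122 carried it at rates like those of their lists, 11 of 18 promoters (61.1%) and 5 of 13 (38.5%). The M-box core stood in 5 of the 25 promoters found for melanosome genes (20%), against 704 of all promoters (2.58%). Only 1 of the 25, that of GPNMB, belonged to a called gene. A match describes the letters in this window and is not evidence of binding. The first promoters are those of CRB3, AP1M2 and RAB25, called higher in H3122. They lie at chr19:6464021-6464270 on the plus strand, chr19:10587313-10587562 on the minus strand and chr1:156060910-156061159 on the plus strand, and capitals mark the E-box:
CRB3: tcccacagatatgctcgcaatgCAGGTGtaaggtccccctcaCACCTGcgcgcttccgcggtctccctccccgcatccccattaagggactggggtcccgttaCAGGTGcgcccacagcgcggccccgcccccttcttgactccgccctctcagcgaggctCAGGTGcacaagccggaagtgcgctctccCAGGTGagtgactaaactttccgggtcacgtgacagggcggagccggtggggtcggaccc
AP1M2: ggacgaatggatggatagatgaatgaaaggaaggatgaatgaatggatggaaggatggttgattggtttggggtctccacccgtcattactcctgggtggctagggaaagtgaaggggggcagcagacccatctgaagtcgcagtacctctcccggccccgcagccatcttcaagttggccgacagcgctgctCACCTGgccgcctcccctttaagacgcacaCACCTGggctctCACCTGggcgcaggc
RAB25: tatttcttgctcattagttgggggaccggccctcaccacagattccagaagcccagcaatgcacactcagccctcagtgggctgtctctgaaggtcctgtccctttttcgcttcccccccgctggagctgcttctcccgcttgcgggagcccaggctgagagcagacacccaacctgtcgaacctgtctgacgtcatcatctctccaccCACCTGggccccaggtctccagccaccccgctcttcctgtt
The last are those of GPNMB, the melanosome gene that was lower in H3122 than in every melanoma line, and TYR, which was at 0 in H3122 but also near 0 in A375. They lie at chr7:23246525-23246774 and chr11:89177625-89177874, both on the plus strand, and capitals mark the M-box core:
GPNMB: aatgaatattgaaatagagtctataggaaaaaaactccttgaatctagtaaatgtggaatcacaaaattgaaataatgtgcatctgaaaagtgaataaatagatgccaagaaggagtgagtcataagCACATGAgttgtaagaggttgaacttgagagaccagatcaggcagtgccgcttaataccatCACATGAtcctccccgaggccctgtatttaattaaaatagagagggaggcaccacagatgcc
TYR: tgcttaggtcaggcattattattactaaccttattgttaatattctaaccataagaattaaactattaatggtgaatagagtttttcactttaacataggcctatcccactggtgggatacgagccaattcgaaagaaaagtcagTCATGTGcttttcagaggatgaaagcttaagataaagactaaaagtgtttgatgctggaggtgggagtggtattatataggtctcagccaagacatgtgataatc

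Levels are given as reads scaled to 1000000 per library (CPM) over the 23368 gene symbols shared by the 4 tables, and differences as H3122 minus a melanoma line on the log2(CPM + 1) scale, ± SE over libraries. A gene was called higher or lower against every line when the difference of means was at least 2 (4-fold) against each of A375, Colo800 and UACC62 and both H3122 libraries lay beyond all 7 melanoma libraries. Of the 14184 genes that averaged at least 1 CPM over the 4 line means, 748 were higher in H3122 (5.27%) and 502 were lower (3.54%). Among the higher genes, 46 had no read in any melanoma library, and among the lower genes, 73 had none in either H3122 library. Untreated libraries held 10666568 to 14858024 reads each, with 16536 to 16942 genes detected. At this depth a gene with no read could still lie at up to 0.102 CPM in H3122 and 0.0334 CPM over the 7 melanoma libraries, from counting error alone.

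**Figure D1:**
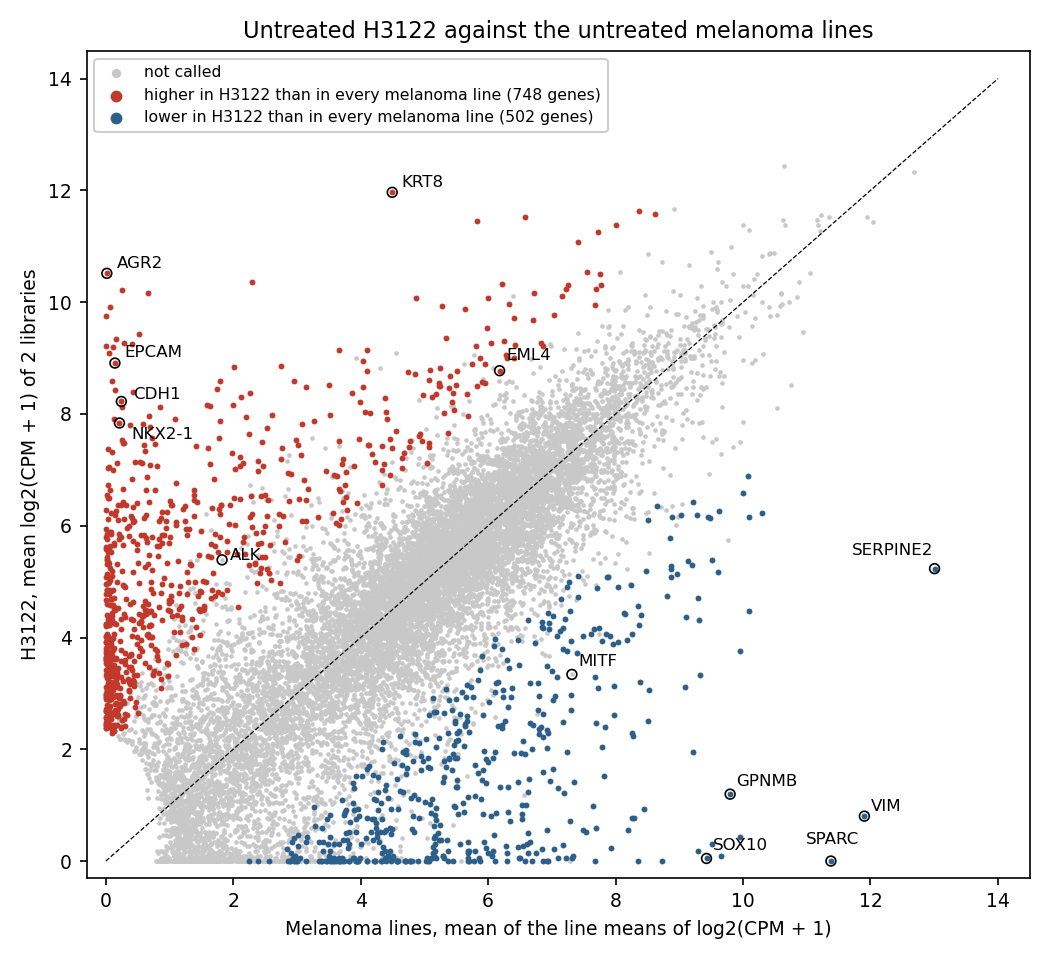
Each point is a gene that averaged at least 1 CPM over the 4 line means. The vertical axis gives its mean log2(CPM + 1) in the 2 untreated H3122 libraries, and the horizontal axis the mean of the A375, Colo800 and UACC62 means. Red points are the 748 genes higher in H3122 than in every line and blue points the 502 lower. Genes of interest are circled: AGR2 and KRT8 lie far above the dashed line of equal levels, and SPARC and VIM far below it. ALK and MITF are grey because 1 line differed from H3122 by less than 2 in log2(CPM + 1).

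The 12 lineage lists held 330 genes, of which 329 were in the tables. Of these, 100 were higher in H3122 than in every melanoma line and 56 were lower. Against 1 line at a time, 115 lineage genes were higher and 76 lower against A375, where the background over all genes was 8.04% and 7.92%. Against Colo800 they numbered 114 higher and 101 lower (background 8.83% and 8.96%), and against UACC62 118 higher and 86 lower (background 9.31% and 10.4%). These counts share the H3122 libraries.

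**Figure D2:**
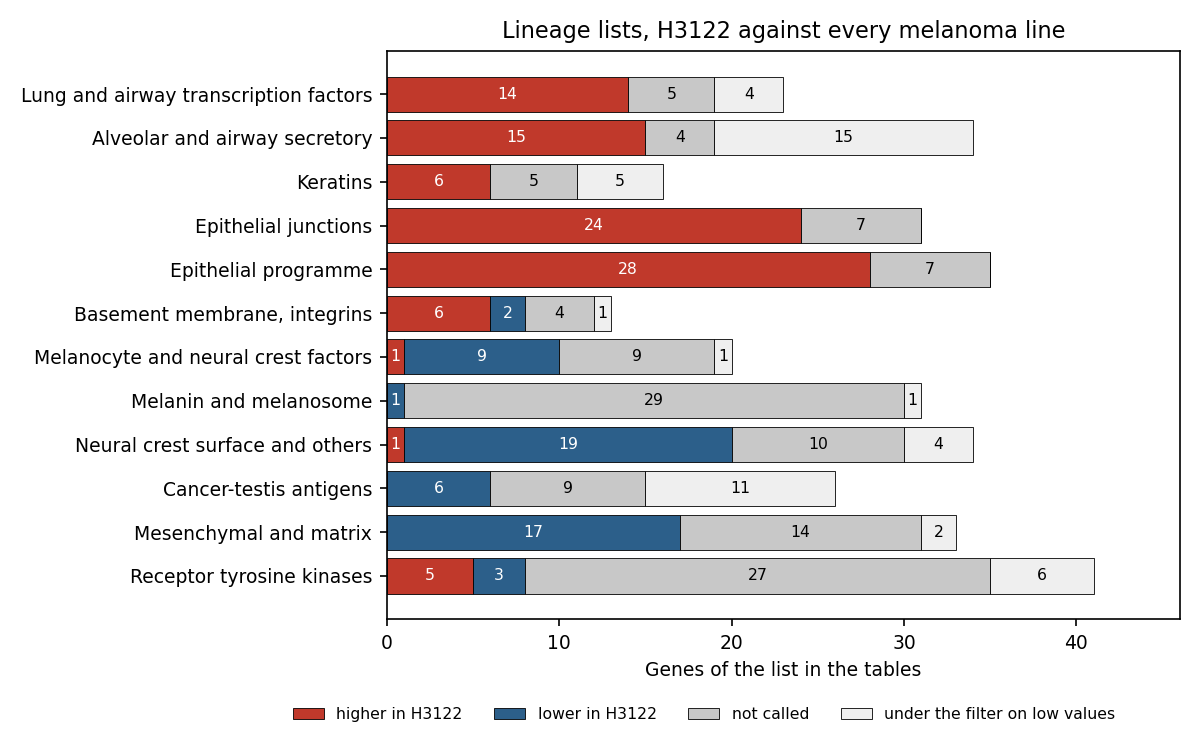
Horizontal bars give, for each of the 12 lineage lists, how many of its genes in the tables were higher in H3122 than in every melanoma line (red), lower (blue), not called (grey) or under the filter on low values (pale). Red fills most of the bars for junctions (24 of 31) and the epithelial programme (28 of 35). Blue fills most of the bar for neural crest surface and other genes (19 of 34). The melanosome bar is almost all grey, with 1 of 31 genes lower.

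Many lung and airway transcription factors, mucins and some other airway products were higher in H3122. The surfactant proteins named below and the club cell product SCGB1A1 were not. All comparison lines were melanoma, so these calls do not tell lung from other epithelia. Of 23 lung and airway transcription factors, 14 were higher in H3122 than in every melanoma line and none was lower. Their median difference was 4.03, against 0.00 for all genes in the tables. As a log2 ratio of CPM in which genes with 3 reads or fewer in a group were set to 3 reads, the same medians were 5.41 and -0.08.

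NKX2-1, the homeodomain factor that specifies lung, had 221 and 235 CPM in the H3122 libraries. It had 0.362, 0 and 0 CPM in A375, 0.0684 and 0 CPM in Colo800, and 0.5 and 0.241 CPM in UACC62. Both H3122 libraries stood far above every melanoma library, and the difference was 7.69 ± 0.16, 7.79 ± 0.07 and 7.39 ± 0.14 against A375, Colo800 and UACC62. ELF3, an epithelial ETS factor, had 632 and 669 CPM in H3122 and at most 0.321 CPM in any melanoma library. It had the largest difference of the list, 9.05 ± 0.11 against its nearest line, UACC62.

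The pioneer factors behaved alike. FOXA1, which opens chromatin for endodermal genes, had 287 and 270 CPM in H3122, against 1.5 to 1.74 CPM in A375, 0 in Colo800 and 1.5 and 1.04 CPM in UACC62. FOXA2 had 15.1 and 15.6 CPM in H3122 and no read in any melanoma library, a level at least 135-fold higher than in UACC62, the line whose limit of 3 reads was least strict. GRHL2, which maintains epithelial junction genes, had 111 and 101 CPM in H3122 and 2 reads in all melanoma libraries together. Its relative GRHL1 had 104 and 93.8 CPM in H3122, and its difference from the nearest line, Colo800, was 5.09 ± 0.13.

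Further factors of the list are known from other airway cells. TP63, the master factor of basal cells, had 47.3 and 43.8 CPM in H3122 and at most 0.143 CPM in melanoma libraries. SOX2, a factor of conducting airways, had 113 and 115 CPM in H3122, and its nearest line was A375 at 6.17 to 11.2 CPM. SPDEF, which drives goblet cell differentiation, averaged 45.1 CPM in H3122, and FOXJ1, the factor of ciliated cells, averaged 14.7 CPM. Factors known from several airway cell types therefore stood above the melanoma lines in the same libraries, and airway cell identity was not tested. EHF entered the list of higher genes narrowly, since Colo800 held 16.8 and 16.7 CPM against 82.6 and 64.0 CPM in H3122, a difference of 2.06 ± 0.18 that was 1.88 without the first H3122 library. Among all lineage genes, INADL (2.05) and FABP7 (-2.07) lay closest inside the 4-fold limit, and KRT6A (1.99) and MITF (-1.98) closest outside it. Without the first H3122 library INADL was at 1.91, and FABP7 was at -1.91 without the second or the third A375 library. KRT6A became a call without the second H3122 library (2.10) or the first Colo800 library (2.12).

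Not all endodermal factors were present. HNF4A, a factor of liver and gut, had a single read in H3122. GATA6, a factor of early lung endoderm, had 2.55 and 2.96 CPM in H3122 against 13.96 and 18.3 CPM in Colo800, and was not called. KLF5, an airway and gut factor, had 458 and 440 CPM in H3122 and was not called because A375 reached 92.3 to 155 CPM, a difference of 1.91 that was 2.10, and a call, without the third A375 library. ETV5, a target of MAP kinase signalling and an alveolar factor, had 72.8 and 65.4 CPM in H3122 against 534 and 525 CPM in Colo800. ETV5 and GATA6 were the 2 genes of the list at least 4-fold lower in H3122 than in Colo800, and neither was so against A375. Against UACC62, 1 gene of the list was at least 4-fold lower in H3122.

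Secretory products divided sharply by cell type. Of the 34 alveolar and airway secretory genes in the tables, 15 were higher in H3122 than in every melanoma line and none was lower, with a median difference of 1.74 (4.49 with the 3-read limit). The higher genes were mainly mucins and products of goblet and club-like cells. AGR2, a disulphide isomerase needed to fold mucins, had 1386 and 1548 CPM in H3122. It had a single read in the 7 melanoma libraries, in UACC62, and its difference of at least 10.47 against every line was the largest among the named genes that were higher. CEACAM5 and CEACAM6, adhesion proteins of the carcinoembryonic antigen family, had 868 and 859 CPM and 594 and 600 CPM in H3122, and neither had a read in any melanoma library.

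Mucins followed. MUC4, a membrane mucin, had 395 and 302 CPM in H3122 and at most 0.214 CPM in melanoma libraries. MUC1 had 121 and 146 CPM in H3122, against 4.98 to 5.91 CPM in A375. MUC5B, the gel-forming mucin of airway glands, had 159 and 134 CPM in H3122, against 50.4, 19.0 and 19.4 CPM in A375, where the libraries were spread widely. SLPI, an airway antiprotease, had 69.1 and 85.9 CPM in H3122 and no melanoma read.

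Several products of alveolar and club cells were at or near 0 in H3122, although 12 of the 34 genes of the list reached 10 CPM there. SFTPC, the surfactant protein specific to alveolar type II cells, had no read there, against 2.19 and 1.67 CPM in Colo800 and 1.79 and 1.61 CPM in UACC62. SCGB1A1, the club cell secretoglobin, also had none. SFTPB had 0.483 and 0.673 CPM in H3122, SFTPA1 0.690 and 0.808 CPM, and SFTPA2 1.86 and 1.14 CPM. NAPSA, a protease that processes surfactant and is used to diagnose lung adenocarcinoma, had 0.966 and 0.875 CPM in H3122, against 0.724 to 0.869 CPM in A375 and 1.64 and 1.28 CPM in UACC62, so that H3122 lay between melanoma lines. H3122 thus held lung transcription factors with almost no RNA of the surfactant proteins named here.

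Keratins of simple epithelium, and some of stratified epithelium, were higher in H3122. Of 16 keratins, 6 were higher than in every melanoma line (KRT4, KRT7, KRT8, KRT17, KRT18 and KRT19) and none was lower, with a median difference of 2.18 (4.38 with the 3-read limit). Against A375 alone 2 were at least 4-fold lower, KRT14 and KRT81. KRT8 had 3747 and 4273 CPM in H3122, against 60.2, 71.5 and 80.4 CPM in A375, 12.4 and 11.95 CPM in Colo800, and 12.1 and 10.4 CPM in UACC62. Its filament partner KRT18 had 2525 and 3106 CPM in H3122, against 200 to 266 CPM in A375, 34.0 and 32.1 CPM in Colo800, and 22.7 and 21.8 CPM in UACC62. Both keratins of this pair were thus present in every melanoma line and higher in A375 than in the other melanoma lines.

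KRT19 and KRT7 were more selective. KRT19 had 909 and 1021 CPM in H3122 and 4 reads in all melanoma libraries. KRT7, a keratin of glandular epithelium used to trace tumours to the lung, had 1058 and 1236 CPM in H3122 and 1.03 to 2.71 CPM in A375, the nearest line at 8.72 ± 0.28. KRT5 and KRT14, the basal cell pair, averaged 0.171 and 0.0681 CPM in H3122, although TP63 was present. KRT14 had 15.7, 3.19 and 5.85 CPM in A375, and KRT81, a hair keratin, had 0.276 and 0.135 CPM in H3122 against 13.03, 6.38 and 8.06 CPM in A375.

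Cell junction genes differed almost as a block. Of 31 epithelial junction genes, 24 were higher in H3122 and none was lower, with a median difference of 4.16 (5.06 with the 3-read limit). CDH1, which encodes E-cadherin of adherens junctions, had 317 and 280 CPM in H3122. It had 0.0905, 0 and 0.0790 CPM in A375, 0.479 and 0.278 CPM in Colo800, and 0.214 and 0.0803 CPM in UACC62. No melanoma library came within reach of H3122, and the differences were 8.15 ± 0.10, 7.77 ± 0.14 and 8.03 ± 0.12.

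EPCAM, an epithelial adhesion protein, had 465 and 496 CPM in H3122 and at most 0.237 CPM in melanoma libraries. Among tight junction proteins, CLDN7 had 208 and 235 CPM in H3122 and at most 0.869 CPM in melanoma, and the scaffold CGN had 1325 and 1306 CPM in H3122 and at most 11.4 CPM in melanoma. CRB3, the polarity protein whose promoter carries 5 E-boxes, had 24.6 and 24.8 CPM in H3122 and at most 0.214 CPM in melanoma. JUP, the plakoglobin of desmosomes, had 249 and 256 CPM in H3122, and its nearest line, Colo800, differed by 4.29 ± 0.11.

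The 7 junction genes that were not called included members that melanoma lines express too. CLDN1 had 74.8 and 72.1 CPM in H3122, 153 and 147 CPM in Colo800, and at most 3.08 CPM in A375 and UACC62. The difference from Colo800 was therefore -1.02 ± 0.04, while that from A375 was 4.69 ± 0.29. DSP and DSG2, of desmosomes, differed from their nearest lines by 1.09 and 1.01.

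Of 35 genes of the wider epithelial programme, 28 were higher in H3122 and none was lower, with a median difference of 5.01 (6.00 with the 3-read limit), the highest median of the 12 lists. The set combines epithelial splicing factors, membrane proteases with their inhibitors, and proteins of polarised transport. SPINT2, an inhibitor of membrane serine proteases, had 562 and 615 CPM in H3122 and at most 0.395 CPM in melanoma libraries. One of its target proteases, ST14 (matriptase), had 230 and 249 CPM in H3122 and at most 0.281 CPM in melanoma. PRSS8, a further membrane protease, had 93.2 and 104 CPM in H3122, and its nearest line differed by 6.54.

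Transport proteins behaved in the same way. MAL2, needed for transcytosis, had 698 and 686 CPM in H3122 and at most 1.72 CPM in melanoma. RAB25, the epithelial RAB11 relative, had 123 and 137 CPM in H3122 and at most 0.0803 CPM in melanoma, and AP1M2, the epithelial clathrin adaptor subunit, had 130 and 150 CPM in H3122 and at most 3.17 CPM. The splicing regulator ESRP1 had 172 and 163 CPM in H3122, against 0.469 to 0.790 CPM in A375, 9.99 and 11.95 CPM in Colo800, and 15.3 and 14.1 CPM in UACC62. ESRP1 was therefore clearly present in Colo800 and UACC62, and the difference was 6.67 ± 0.10 against A375 but 3.42 ± 0.07 against UACC62.

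A few members of this list belong to both lineages. ERBB3, a receptor of neuregulin that melanocytes also use, had 239 and 218 CPM in H3122, 510 to 661 CPM in A375, 220 and 219 CPM in Colo800, and 192 and 210 CPM in UACC62. FXYD3, an ion pump regulator, differed by only 0.07 from its nearest line.

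**Figure D3:**
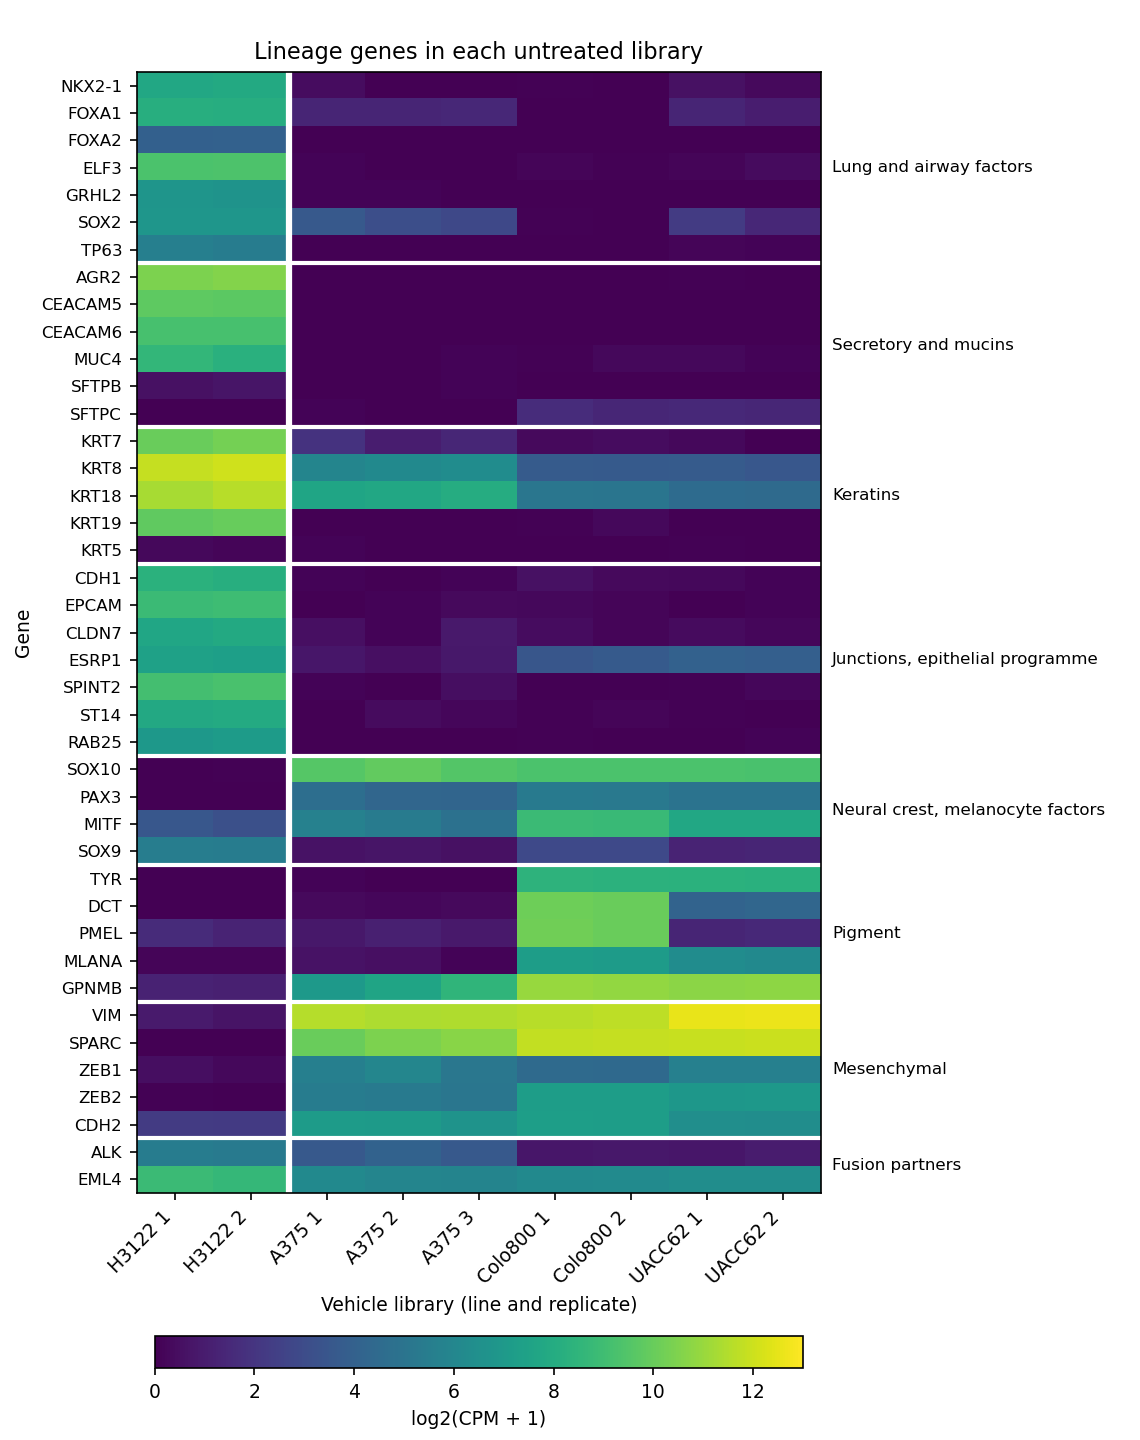
Each row is a lineage gene and each column an untreated library, with the 2 H3122 libraries left of the 7 melanoma libraries. Colour gives log2(CPM + 1), dark for 0 and yellow for the highest levels. Lung factors, mucins, most keratins and junction genes are bright in H3122, where SFTPB, SFTPC and KRT5 are dark, and SOX10, VIM, SPARC and ZEB2 are bright in melanoma. TYR, DCT, PMEL and MLANA are dark in A375 as well as in H3122.

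Genes of the basement membrane and its receptors moved in both directions. Of 13, 6 were higher in H3122 and 2 were lower. ITGB4, the integrin subunit of hemidesmosomes, had 237 and 231 CPM in H3122 and at most 12 CPM in melanoma. The partner of ITGB4, ITGA6, was lower in H3122, with 59.4 and 48.7 CPM against 264 to 364 CPM in A375, 349 and 358 CPM in Colo800, and 914 and 880 CPM in UACC62.

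The αv partners also divided. ITGB6, an epithelial subunit that activates TGF-β, had 40.2 and 31.6 CPM in H3122 and at most 0.205 CPM in melanoma. ITGB8, which shares that function, had 9.38 and 8.35 CPM in H3122, against 155 to 271 CPM in the melanoma libraries. LAMA5 averaged 592 CPM in H3122, and the nearest line was A375 at 47.3, 119 and 71.7 CPM, a difference of 2.98 ± 0.39.

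Transcription factors of the melanocyte lineage were in sum lower in H3122, at 195 to 209 CPM against 1509 to 2080.3 CPM in melanoma libraries. Of 20, 9 were lower in H3122 than in every melanoma line and 1 was higher, with a median difference of -3.14 (-4.62 with the 3-read limit). In H3122 10 of them still reached 1 CPM and 3 had no read. SOX10, the neural crest factor that melanocytes keep, had 0 and 0.0673 CPM in H3122, a single read in both libraries together. It had 768, 939 and 733 CPM in A375, 628 and 645 CPM in Colo800, and 642 and 622 CPM in UACC62. The lines did not overlap, and the differences were -9.61 ± 0.12, -9.27 ± 0.05 and -9.26 ± 0.05.

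PAX3, which acts with SOX10 on MITF, had no read in H3122, against 18 to 25.2 CPM in A375, 40.0 and 37.2 CPM in Colo800, and 30.2 and 30.3 CPM in UACC62. It was thus at least 202-fold lower than in A375. RXRG, a retinoid receptor of neural crest cells, had a single read in H3122 and 98.1 CPM or more in every melanoma library. The T-box factor TBX2 was still measurable in H3122, at 2.76 CPM in each library, against 44.7 CPM or more in melanoma.

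MITF itself fell just short of a call. It had 10.6 and 7.88 CPM in H3122, 51.6, 41.0 and 27.8 CPM in A375, 463 and 450 CPM in Colo800, and 220 CPM in each UACC62 library. H3122 lay under all melanoma libraries, but the difference from A375 was -1.98 ± 0.32, just inside 4-fold, while it was -5.50 ± 0.19 from Colo800 and -4.45 ± 0.19 from UACC62. Without the first H3122 library or the third A375 library the difference from A375 was -2.17 or -2.21, and MITF was called lower. MITF is also transcribed from promoters used outside melanocytes, and gene totals do not separate its isoforms. SOX9, a factor of both neural crest and airway progenitors, was the member that was higher in H3122, with 44.1 and 42.3 CPM against at most 6.25 CPM in melanoma libraries. TFAP2A, shared by neural crest and epithelia, had 78.5 and 75.6 CPM in H3122 and at most 47.9 CPM in melanoma, under the 4-fold limit.

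The genes of the melanosome did not separate H3122 from all melanoma lines. Of 31, only GPNMB was lower against every line and none was higher, with a median difference of -1.89 (-2.99 with the 3-read limit). Against 1 line at a time, 23 were lower in H3122 than in Colo800 and 13 lower than in UACC62, but 2 lower than in A375, where 2 others were higher in H3122. GPNMB, a melanosome glycoprotein, had 1.38 and 1.21 CPM in H3122, against 126, 191 and 358 CPM in A375, 2010.0 and 1901 CPM in Colo800, and 1735 and 1762 CPM in UACC62.

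The pigment enzymes show the split. TYR, the rate-limiting enzyme of melanin synthesis, had no read in H3122 and 0.0905, 0 and 0 CPM in A375. In Colo800 it had 343 and 328 CPM, and in UACC62 310.4 and 307 CPM. H3122 and A375 overlapped, and both lay far under the other lines. DCT, the next enzyme of the pathway, had no read in H3122, 0.188 to 0.271 CPM in A375, 1120.0 and 1050.0 CPM in Colo800, and 16.6 and 18.9 CPM in UACC62.

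PMEL, which forms the fibrils of the melanosome, was high in a single line. It had 2.00 and 1.41 CPM in H3122, 0.814 to 1.22 CPM in A375, 1.57 and 1.85 CPM in UACC62, and 1144 and 1044 CPM in Colo800. MLANA, the melanocyte antigen MART-1, had 0.138 and 0.135 CPM in H3122 and up to 0.543 CPM in A375, against 142 CPM or more in Colo800 and 72.3 CPM or more in UACC62. MLPH, which links melanosomes to myosin and is also used by secretory epithelia, had 134 and 146 CPM in H3122, near the 158 and 147 CPM of Colo800 and above the 1.09 to 1.5 CPM of A375 and the 29.2 and 31.5 CPM of UACC62.

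**Figure D4:**
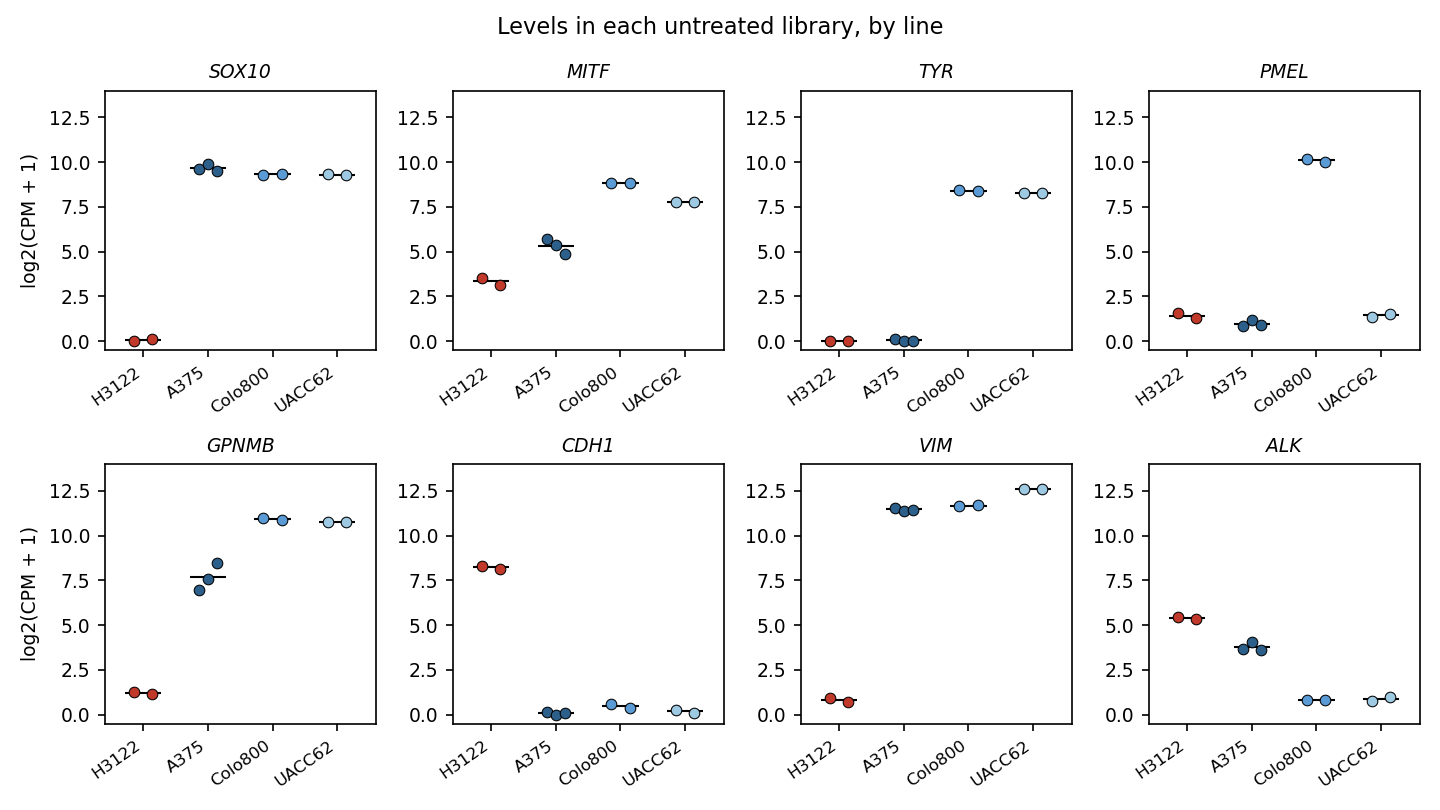
Panels give log2(CPM + 1) of 8 genes in each untreated library, with H3122 at the left and points for single libraries. Horizontal lines are line means. SOX10, GPNMB and VIM separate H3122 from all melanoma lines and CDH1 does so in the other direction. TYR is near 0 in A375 as in H3122, PMEL is high in Colo800 only, and MITF and ALK lie closest to H3122 in A375.

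The list of neural crest surface proteins and other neural crest genes separated H3122 from A375 as well. Of 34, 19 were lower in H3122 than in every melanoma line and 1 was higher, with a median difference of -4.26 (-5.49 with the 3-read limit). CSPG4, the melanoma-associated proteoglycan, had 0.345 and 0.337 CPM in H3122 and 629 CPM or more in every melanoma library. MCAM, an adhesion protein of melanoma, had 2.97 and 2.76 CPM in H3122 and 321 CPM or more in melanoma. EDNRB, the endothelin receptor that melanoblasts need to migrate, had no read in H3122.

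EDNRB reached 56.1 to 84.8 CPM in A375, 242 and 234 CPM in Colo800, and 110.2 and 113 CPM in UACC62. S100B, the calcium-binding protein used to diagnose melanoma, had no read in H3122 and 33.3 CPM or more in every melanoma library. The member that ran the other way was ALCAM, an adhesion protein found in many epithelia, with 799 and 696 CPM in H3122 and at most 99.0 CPM in melanoma. NGFR, a receptor of neural crest stem cells, was not called, since its 7.04 and 9.02 CPM in H3122 lay above the 2.14 and 2.01 CPM of UACC62 and under the 186 and 194 CPM of Colo800.

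Cancer-testis antigens, germ cell genes that many melanomas switch on, were almost silent in H3122. Of 26, 23 had no read in either H3122 library, 6 were lower than in every melanoma line and none was higher. Of all 23368 symbols, 16921 and 16942 were detected in the H3122 libraries. Of the 26, 11 averaged under 1 CPM over the 4 line means, so their lack of reads hardly sets H3122 apart from melanoma. The median difference was -1.65, and -6.68 with the 3-read limit over the 21 genes that had a ratio. MAGEA12 and MAGEA6 had no read in H3122 and reached 102 to 134 CPM and 93.1 to 107 CPM across the melanoma libraries. PRAME was the member with a clear level in H3122, 21.2 and 20.3 CPM, against 143 to 231 CPM in A375, 248 and 242 CPM in Colo800, and 504 and 500 CPM in UACC62.

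Lines differed within melanoma here too. MAGEA4 had no read in H3122 and was not called, because Colo800 held 1.37 and 0.973 CPM while A375 held 978 to 1191 CPM. The numbers lower in H3122 than in A375, Colo800 and UACC62 were 12, 8 and 11. MAGEA genes are near-identical copies, so how reads were divided among them is uncertain.

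Mesenchymal genes were lower in H3122. Of 33 genes of the cytoskeleton, matrix and factors of epithelial-mesenchymal transition, 17 were lower than in every melanoma line and none was higher, with a median difference of -3.38 (-4.68 with the 3-read limit). VIM, the vimentin filament protein, had 0.897 and 0.606 CPM in H3122. It had 2980.0, 2698 and 2778 CPM in A375, 3161 and 3311 CPM in Colo800, and 6147 and 6217 CPM in UACC62. The lines did not overlap, and the differences were -10.66 ± 0.13, -10.86 ± 0.12 and -11.79 ± 0.12 against A375, Colo800 and UACC62.

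SPARC, a secreted matrix protein, had no read in H3122 and 1029 CPM or more in every melanoma library, at least 13270-fold lower than in A375. ZEB2 and ZEB1, repressors of CDH1, averaged 0.0345 and 0.308 CPM in H3122. ZEB2 reached 33.4 to 152 CPM across melanoma libraries, and ZEB1 21.0 to 60.9 CPM. SNAI1, a further repressor of CDH1, had 0.276 and 0.740 CPM in H3122 and 15.3 CPM or more in melanoma. CDH2, the N-cadherin gene, had 3.79 and 3.57 CPM in H3122 and 80.8 to 154 CPM in melanoma.

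Several matrix genes did not follow. TGFBI had 57.5 and 63.3 CPM in H3122, above the 1.14 and 0.963 CPM of UACC62 and under the 2517 and 2502 CPM of Colo800. S100A4 was likewise above UACC62 and under A375 and Colo800. FN1, fibronectin, had 56.0 and 49.5 CPM in H3122 against 76.8 to 219 CPM in A375, a difference of -1.21 ± 0.45, and against 4790.0 CPM or more in Colo800.

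Receptor tyrosine kinases showed no common direction. In the list of 41 genes, which includes EML4 as the fusion partner of ALK, 5 were higher in H3122 (EML4, FLT4, LTK, EPHA1 and MST1R) and 3 were lower (DDR2, EPHA3 and FGFR1), with a median difference of 0.07 (-0.25 with the 3-read limit). MST1R, the epithelial receptor of macrophage-stimulating protein, had 82.8 and 80.6 CPM in H3122 and at most 1.09 CPM in melanoma. DDR2, a collagen receptor of mesenchymal cells, had 0.207 and 0.135 CPM in H3122 and 30.4 CPM or more in melanoma. MET, which crizotinib also inhibits, had 494 and 413 CPM in H3122 and was not called, at 1.91 ± 0.13 against A375 (2.04, and a call, without the second H3122 library).

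The fusion partners were both above the melanoma lines. ALK had 42.8 and 39.1 CPM in H3122, 11.6, 15.8 and 11.4 CPM in A375, 0.753 and 0.764 CPM in Colo800, and 0.715 and 0.963 CPM in UACC62. H3122 exceeded all melanoma libraries, but A375 was nearer than 4-fold, at 1.60 ± 0.16, while Colo800 and UACC62 differed by 4.58 ± 0.06 and 4.51 ± 0.12. EML4 had 467 and 409 CPM in H3122, against 56.5 to 70.5 CPM in A375, 70.1 and 72.5 CPM in Colo800, and 82.5 and 82.8 CPM in UACC62. Its differences were 2.80 ± 0.13, 2.60 ± 0.10 and 2.39 ± 0.09. Gene totals do not separate fused from unfused transcripts of either gene.

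Some of the genes furthest from all melanoma lines were in none of the lists. Higher in H3122 were S100A14, an epithelial calcium-binding protein, at 1103 and 1274 CPM; SCEL, a protein of the cornified envelope, at 650.2 and 580 CPM; SCNN1A, the α subunit of the epithelial sodium channel, at 622 and 602 CPM; and GPR116 (now ADGRF5), a receptor that limits surfactant in alveolar cells, at 589 and 500.1 CPM. None of these exceeded 0.656 CPM in a melanoma library. Lower in H3122 were the secreted protease inhibitors SERPINE2 and SERPINA3 and the matrix proteins LAMA4, SRPX and HMCN1, with the cytoskeletal adaptor GAS7. SERPINE2 had 33.8 and 39.6 CPM in H3122 and averaged 8200.5 CPM in A375, 5770.4 CPM in Colo800 and 11985 CPM in UACC62, and SERPINA3 had 2 reads in H3122 and 178 CPM or more in every melanoma library.

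Most markers of other cell types, those of squamous cells excepted, were under 1 CPM in H3122. Of 12 gut epithelium markers, 4 were higher than in every melanoma line: TFF1, a secreted trefoil peptide (52.3 and 69.3 CPM), MUC2, the intestinal gel-forming mucin (33.3 and 23.2 CPM), the intestinal factor CDX2 (9.93 and 11.2 CPM) and GPA33 (10.4 and 9.02 CPM). The summed level of this list was 108 to 114 CPM in H3122 and 0.161 to 2.26 CPM in melanoma libraries, while CDX1 and CDH17 had no read in H3122. Of 12 squamous markers, SOX2, TP63 and S100A2 were higher, with a summed level of 376 to 402 CPM in H3122 and 3.05 to 57.6 CPM in melanoma. SOX2 and TP63 are also counted among the lung and airway factors, and only 3 of the 12 reached 10 CPM in H3122. The squamous keratins KRT5 and KRT14 were near 0 there (above), and 2 markers were at least 4-fold lower in H3122 than in A375.

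Markers of stromal and blood cells were in part absent. In H3122, 5 of 12 fibroblast genes (COL3A1, DCN and PDGFRB among them), 4 of 12 endothelial genes (PECAM1 among them) and 2 of 12 leukocyte genes (MS4A1 among them) had no read. Of all 23368 symbols, only 16921 and 16942 were detected in the H3122 libraries. Genes without a read were thus common, and these counts say little about the cell types. The summed level of the fibroblast list was 84.5 to 84.6 CPM in H3122 and 39.3 to 189.8 CPM in melanoma libraries, and that of the endothelial list 25.2 to 26.9 CPM and 9.47 to 71.1 CPM. The leukocyte list summed to 63.5 to 69.9 CPM in H3122, above the 8.34 to 60.4 CPM of melanoma libraries. Most of that sum was LCP1, an actin-bundling protein of leukocytes that many tumour lines express, with 65.7 and 60.0 CPM in H3122 and 56.7 and 53.3 CPM in Colo800. PTPRC, the pan-leukocyte surface phosphatase, had a single read in H3122. Of 12 fibroblast genes only COL1A1 was higher, with 65.5 and 66.5 CPM in H3122, while its partner chain COL1A2 averaged 0.0681 CPM. CDH5 among endothelial genes was also higher, at 10.4 and 8.41 CPM, as was UCHL1 among neuroendocrine genes, at 4.28 and 4.31 CPM. CHGA, INSM1 and NEUROD1 had no read in H3122. The summed level of the neuroendocrine list was 15.9 to 17.7 CPM in H3122, within the 11.98 to 33.7 CPM of melanoma libraries. Of 12 hepatocyte markers, TF was lower in H3122, and of 12 leukocyte markers none was called. The fibroblast, endothelial, neuroendocrine and hepatocyte lists thus held 1 call in 12 genes each. Over all genes that passed the filter, 5.27% were higher and 3.54% lower, so these single calls say little about the cell types. None of 20 housekeeping genes was called in either direction, and their median difference was 0.24.

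The comparison was repeated with libraries that the untreated one did not use, those of drug-treated cultures, in which lung and melanoma lines received different drugs. Of 14469 genes that passed the same filter, 944 were higher in treated H3122 than in every treated melanoma line (6.52%) and 624 were lower (4.31%). Of the 748 genes higher in untreated H3122, 582 were higher again (77.8%; 61.7% of the 944), and of the 502 lower genes, 74.7% were lower again (60.1% of the 624). No gene called in both sets changed direction. Among lineage genes, 87 of the 100 higher and 48 of the 56 lower were called again.

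Some calls were specific to 1 set of cultures. ESRP1 was not called among treated cultures, with a mean of 182 CPM in H3122 against 33.1, 26.1 and 102 CPM in A375, Colo800 and UACC62. ZEB1 was not called either, with 0.308 CPM in treated H3122 against 23.5, 3.61 and 7.95 CPM in the treated melanoma lines. Its mean was still under that of every treated line, and at such low levels the 1 CPM added before the log2 shrinks the difference. MITF was called lower, with 8.42 CPM in treated H3122 against 132, 585 and 366 CPM. ALK was called higher, with 32.3 CPM in treated H3122 against 2.11, 1.33 and 0.904 CPM, and DCT was called lower, with 0.115 CPM against 276, 6024 and 1328 CPM.

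How the lineage genes of H3122 responded to crizotinib was tested within its own table, with limma on log2(deposited value + 1) for 2 crizotinib against 2 vehicle libraries. The vehicle libraries are the same that entered the comparison above, so genes picked for being high in them are not an independent choice. Of 13959 genes tested, 3086 rose (22.1%) and 3350 fell (24.0%) at a Benjamini-Hochberg adjusted p under 0.05. Among the 100 lineage genes higher in H3122, 25 rose and 46 fell, and among all 748 higher genes, 196 rose and 307 fell.

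Lung transcription factors went both ways. NKX2-1 reached deposited values of 7244 and 7336 with crizotinib, against 3149 and 3422 with vehicle, and the groups did not overlap (log2 change 1.15 ± 0.08 SE, limma adjusted p = 6.48e-07). SOX2 rose by a similar amount (1.08 ± 0.08, adjusted p = 8.14e-07 by limma). FOXA2 fell to 65.5 and 66.7 with crizotinib, against 215 and 227 with vehicle (-1.73 ± 0.14, limma adjusted p = 2.22e-06), and TP63, SPDEF and SOX9 fell as well, by 1.00, 1.80 and 2.00 on the log2 scale. Over the 23 factors, 8 rose and 8 fell among 21 tested.

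Keratins and basement membrane genes mostly fell. Of 11 keratins tested, 10 fell and 1, KRT4, rose. KRT8 had 30264.5 and 29116 with crizotinib, against 53445 and 62128 with vehicle (-0.96 ± 0.11, limma adjusted p = 2.24e-05). Of 12 basement membrane genes, 9 fell, among them ITGB4 (-0.88 ± 0.08), and 1 rose. These shares exceed the 24.0% of all genes that fell, though no test of the lists was made.

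Junction genes went both ways, and 12 of the 30 tested fell while 7 rose. PKP2, a desmosome plakophilin, fell (-2.89 ± 0.32, limma adjusted p = 2.38e-05), and DSP, the desmosome linker to keratin, rose (1.72 ± 0.10, limma adjusted p = 8.99e-08). CDH1 had 4357 and 4439.6 with crizotinib, against 4519 and 4076 with vehicle, so the groups overlapped (0.04 ± 0.08, limma adjusted p = 0.756). EPCAM changed by -0.03 ± 0.09 (limma adjusted p = 0.805) and ESRP1, of the wider epithelial programme, by -0.01 ± 0.08 (limma adjusted p = 0.950). VIM, close to its counting limit, had 53.4 and 46.2 with crizotinib, against 12.8 and 8.81 with vehicle (2.12 ± 0.30, limma adjusted p = 0.000139). In CPM it then averaged 3.76 in H3122, against 2653 or more in the treated melanoma lines.

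Secretory genes divided by product. CEACAM6 rose (1.01 ± 0.09, limma adjusted p = 3.27e-06), while MUC5B fell (-2.63 ± 0.13, adjusted p = 2.75e-08), as did MUC1 (-1.73 ± 0.10, adjusted p = 1.52e-07) and AGR2 (-0.66 ± 0.10, adjusted p = 0.000212). Of 5 gut markers tested, 3 fell (MUC2, TFF1 and GPA33) and 2 rose (CDX2 and VIL1). MUC2 had 5.03 and 8.21 with crizotinib, against 475 and 338 with vehicle (-5.75 ± 0.25, limma adjusted p = 1.42e-08), and TFF1 fell by 3.01 ± 0.14 on the log2 scale. CDX2 rose by 0.43 ± 0.14 and VIL1, the villin of brush borders, by 2.10 ± 0.27 (limma adjusted p = 0.0214 and 7.96e-05). The call for CDX2 was lost under quantile normalisation (limma adjusted p = 0.0637), without the filter (limma adjusted p = 0.0654) and with DESeq2 (DESeq2 adjusted p = 0.0993). It was also lost without the first vehicle library or the second crizotinib library, where the log2 change was 0.33 and 0.36. ALK and EML4 fell by 0.47 ± 0.10 and 0.38 ± 0.09 (limma adjusted p = 0.00224 and 0.00481). The call for EML4 was lost without the first crizotinib library (limma adjusted p = 0.112) and under quantile normalisation (limma adjusted p = 0.0558).

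**Figure D5:**
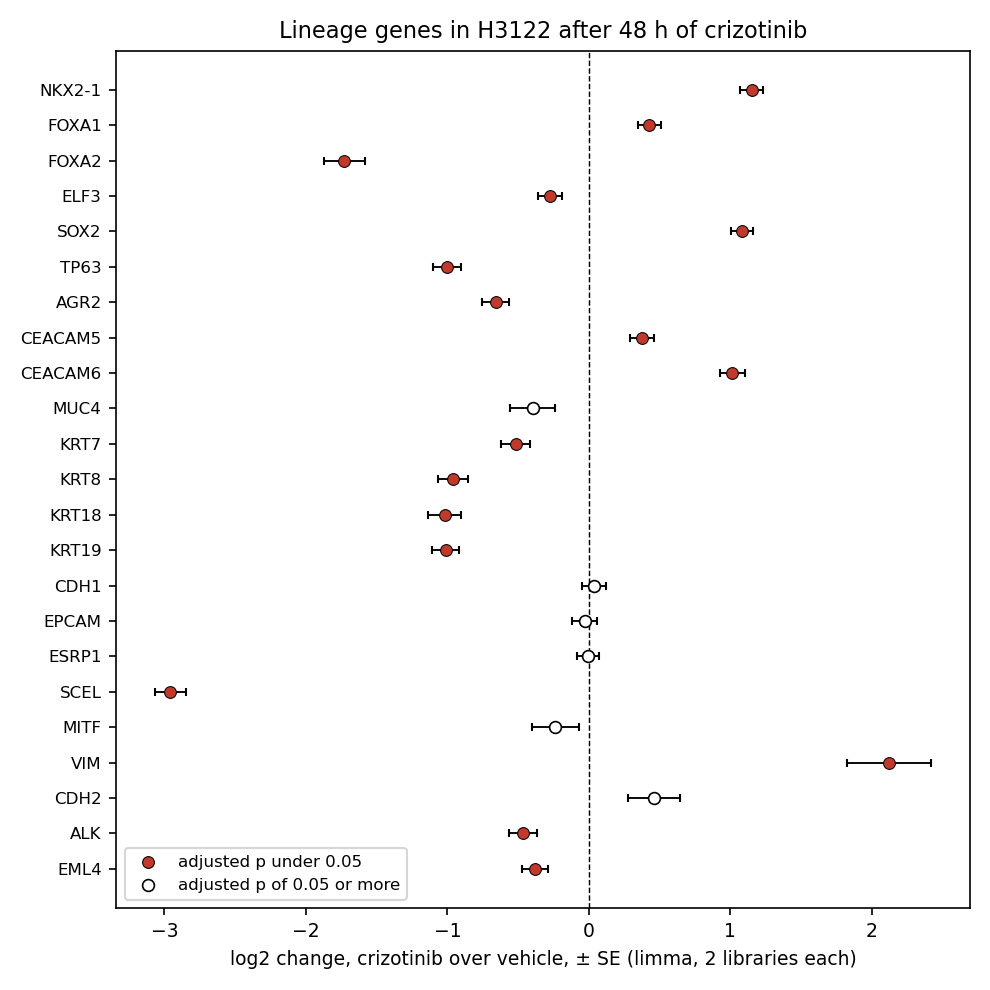
Points give the log2 change of lineage genes in H3122, crizotinib over vehicle, with bars of 1 SE from limma on 2 libraries each. Filled points have an adjusted p under 0.05. NKX2-1, SOX2, CEACAM6 and VIM lie right of 0, the keratins, FOXA2 and SCEL lie left of it, and CDH1, EPCAM and ESRP1 lie at 0.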

How the data were processed

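RNA-seq values of 18 cultures were used: H3122, A375, Colo800 and UACC62 with vehicle or after 48 h of drug. Each table holds the authors' normalised read counts, called a signal here, which are deposited per symbol and library. Names listed in the submitters' processing notes, with no roles given, are DESeq 1.18.0, HTSeq 0.5.4, STAR 2.3.0e, hg19 and mm9. Read filters are not stated in any source used here. Per the labels' protocols, libraries came from the TruSeq RNA kit (version 2), which keeps no strand, so genes that overlap on opposite strands, such as SOX2 and its overlapping transcript, cannot be told apart. Near-identical genes (CEACAM5 and CEACAM6, SFTPA1 and SFTPA2, KRT8 and its pseudogene copies) have an uncertain division of reads.

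Reads were recovered by dividing each value by the library's step: 100% of values were whole within 0.1. Each library was scaled to 1000000 reads over 23368 shared symbols. Genes with a mean of line means of at least 1 CPM were compared on log2(CPM + 1). Lines lie in separately normalised tables, so no test was made across them. Within the H3122 table, limma 3.58.1 (R 4.3.3) with a trend was run on log2(deposited signal + 1) for genes with a mean of at least 10. Alternatives used edgeR 4.0.16 and DESeq2 1.42.0 on recovered reads. The calls and the fit were tested on simulated data.

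Named genes were, per direction, the 12 called genes furthest from the nearest melanoma line with at least 20 CPM in the higher group, up to 4 called genes of each list, and 20 fixed lineage genes. Noncoding, antisense, pseudogene, uncharacterised and sex-linked marker genes were left out of the first of these. Some genes that the rule names are not reported here. Other genes named are list members given to show a list's range or its exceptions, chosen after their values were seen. The members and lists were chosen with earlier results of these data known. Chi-square over degrees of freedom between replicates was 7.90 for untreated H3122 and 1.30 to 31.2 for the melanoma lines, above sampling noise. The limits given for genes with few or no reads cover counting error only. The ± SE values come from the spread between libraries.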

Additional observations from a re-analysis of the deposited data

How the results depend on the processing

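The 748 higher and 502 lower genes depend on the fold limit and on how low values are treated. With a pseudocount of 5 CPM they numbered 429 and 254, with a filter at 10 CPM 379 genes were higher, with a limit of 2-fold 1325 and 1277, and with a limit of 8-fold 396 and 239. Without A375, against Colo800 and UACC62 alone, 855 genes were lower. Leaving out 1 library at a time gave 737 to 753 higher and 498 to 507 lower genes, 933 to 967 and 620 to 633 among treated cultures, 1115 to 1166 and 1116 to 1146 against A375, 1241 to 1272 and 1260 to 1296 against Colo800, and 1315 to 1337 and 1464 to 1492 against UACC62. Scaling by TMM or by DESeq2 moved the median difference of all genes to -0.02 and -0.00, from -0.03. Of the genes chosen by the rule or named in the text, 100 were called, and all of them stayed called under both scalings and a pseudocount of 0.25. Without 1 library at a time 98 to 100 stayed called, the exceptions being EHF, INADL and FABP7 (above), and 86 did with a pseudocount of 5, which ended calls for low genes such as LTK, FLT4, FGFR1, FOXJ1 and CIITA. Of 47 such genes with no call, 4 gained one without 1 library (MITF, KLF5, KRT6A and MET, above), 3 with a pseudocount of 0.25 (MITF, KRT6A and MAGEA4, at -2.06, 2.59 and -2.49) and 2 under DESeq2 scaling (KLF5 and KRT6A, at 2.01 and 2.01).

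For crizotinib against vehicle, 6436 genes changed, and 4417 to 6910 when 1 library was left out. edgeR called 6471 and DESeq2 4665. Quantile normalisation called 6004, of which 51.3% rose (47.9% in the main result). With the replicate number as a block, 5381 were called. Same-numbered libraries deviated in opposite directions (correlation -0.209), so the numbers are not shown to pair samples. A crossed pairing, added after seeing the data, called 8522. Of the 102 such genes that were tested, the block ended the calls of 7, among them ELF3, S100A14 and CEACAM5, at limma adjusted p of 0.141, 0.0709 and 0.0554. A fit without the filter ended the calls of 9, quantile normalisation of 7 and DESeq2 of 6. Calls were also lost when a crizotinib library was left out.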

Other observations

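Some genes of antigen presentation, a group that no list held, were lower in H3122 than in every melanoma line. These genes were chosen after their values were seen, and give a description only. Of 15 genes of MHC class II presentation, 8 were lower in H3122 than in every melanoma line and none was higher. The rest of the 15 were not called, and over all genes that passed the filter 3.54% were lower. CIITA, the transactivator that switches the class II genes on, had 0 and 0.0673 CPM in H3122, against 37.8 to 78.9 CPM in A375, 7.19 and 7.99 CPM in Colo800, and 6.07 and 6.18 CPM in UACC62. Among drug-treated cultures 6 of these 8 were lower again, CIITA (2.19 CPM in Colo800) and HLA-DMA being the exceptions. CD74, the invariant chain, had 0.483 and 0.942 CPM in H3122, against 2037 CPM or more in A375, 291 and 299 CPM in Colo800, and 45.7 and 44.4 CPM in UACC62. HLA-DRA, the invariable α chain, had 2 reads in H3122 and 74.7 CPM or more in every melanoma library.

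RFX5, a promoter-binding partner of CIITA, ran otherwise and had 274 and 253 CPM in H3122 and at most 165 CPM in melanoma. HLA-DQB1 was an exception among the chains, with 88.2 and 95 CPM in H3122 and at most 35.6 CPM in melanoma. Among 7 class I genes, 1 was lower in H3122: HLA-B, with 65.6 and 70.8 CPM against 276 CPM or more in melanoma. Class I and class II genes have near-identical and variable copies, so the division of reads among HLA genes is uncertain.

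The miR-200 family, known to repress ZEB1 and ZEB2, was also chosen after its values were seen. Its mature forms fall in groups by seed (bases 2 to 8, in capitals), given from RefSeq on GRCh38.p14, plus strand, at chr1:1167916-1167937, chr12:6964155-6964176, chr1:1167160-1167181, chr12:6963742-6963764 and chr1:1169055-1169076:
hsa-miR-200a-3p: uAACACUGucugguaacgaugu
hsa-miR-141-3p: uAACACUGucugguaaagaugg
hsa-miR-200b-3p: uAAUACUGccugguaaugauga
hsa-miR-200c-3p: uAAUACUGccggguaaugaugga
hsa-miR-429: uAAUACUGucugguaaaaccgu
Reads on the hairpin genes were few. The H3122 libraries held 9 and 16 reads on MIR429, 6 and 7 on MIR141, 2 and 6 on MIR200A, 2 and 0 on MIR200B, and none on MIR200C, and the 7 melanoma libraries together held 1 read, on MIR429. These libraries do not capture mature miRNAs, and reads on a hairpin gene come from longer transcripts, so no level of the miRNAs follows from them.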
